A study of Saccharomyces cerevisiae with 18 samples.

Results

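Gene expression in a swi3 mutant of budding yeast was set against that in an rlm1 mutant, both grown without the cell wall dye Congo Red. The 6 arrays compared, 3 from each mutant, were taken by their sample labels from a series of 18 arrays. The series holds the wild type, the rlm1 mutant and the swi3 mutant of Saccharomyces cerevisiae BY4741, a haploid laboratory strain of mating type a that carries deletions in HIS3, LEU2, MET17 and URA3. Each strain was measured without dye and with 30 µg/ml Congo Red, with 3 arrays in each of the 6 groups. Cultures were grown overnight, diluted and grown back to mid density, and then kept for 4 hours with or without the dye before total RNA was isolated. The genotypes of the groups compared are thus BY4741 with a mutated swi3 gene and BY4741 with a mutated rlm1 gene, both untreated for 4 hours. The labels name the mutants but give neither the alleles, the markers used nor the number of clones, so a mutant strain may stand for 1 clone. The series design calls the 3 samples of a group biological, and nothing in the sources used here says how separate the cultures were.

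Swi3 is a core subunit of SWI/SNF, the complex that uses ATP to slide and evict nucleosomes at promoters, and without it the complex does not assemble properly. Rlm1 is a MADS-box transcription factor that the MAP kinase Slt2 activates when the cell wall is damaged, in the integrity pathway that runs from surface sensors through Rho1 and protein kinase C. SWI/SNF is known for its part in the induction of genes such as HO, SUC2, PHO5 and PHO84, and in the study it was examined beside Rlm1 for its part in the transcription of wall genes. The comparison of the mutants without dye shows how far their resting transcriptomes lie apart. The untreated wild type is given beside it, because a difference between mutants does not say which of them departs from the wild type.

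All levels are log2 values per gene, quantile-normalized over the 18 arrays unless they are said to be as deposited. A difference is swi3 minus rlm1 on the log2 scale, with the standard error of the fit and n = 3 arrays per group. A gene was called where limma's adjusted p was under 0.05. Levels under 7 lie where probe sets for absent targets mostly lie, so the size of a difference that starts or ends there is uncertain.

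As deposited, the array medians were 9.27, 10 and 9.98 in rlm1, 9.58 to 9.69 in swi3 and 10 to 10.03 in the untreated wild type. The array rlm1 replicate 1 stood apart from the other rlm1 arrays, and its median was low. Its level difference between the 3' and 5' probe sets of 7 control genes was 1.15, against 0.79 and 0.86 on the other rlm1 arrays. That difference was 0.83 to 1.26 in swi3 and 0.76 to 0.80 in the wild type. It was largest on swi3 replicate 3 (1.26), and swi3 replicate 1 had 1.04. A probe set for 25S ribosomal RNA, also as deposited, read 12.38 to 13.35 in rlm1, 10.36 to 12.91 in swi3 and 8.99 to 11.3 in the wild type. LEU2, which is deleted in BY4741, read 8.66 on rlm1 replicate 1 against 6.23 and 6.18 on the other rlm1 arrays, and 7.04 on swi3 replicate 1 against 5.61 and 5.89, so its level on rlm1 replicate 1 goes against the genotype. These values move with strains or arrays, and their part in the differences below was not tested. For comparisons that use rlm1, the counts of called features over the genome are given with and without rlm1 replicate 1. At least 95.3% of probe sets differed between any 2 of the 18 arrays, so no array was a copy of another.

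The transcript of the mutated gene was at the level of absent targets in each mutant. SWI3 was at 3.60, 3.38 and 3.60 on the swi3 arrays, 9.20, 9.50 and 9.43 on the rlm1 arrays and 9.18 to 9.45 in the wild type. RLM1 was at 5.05, 4.57 and 4.50 on the rlm1 arrays, 10.11, 10.08 and 10.03 on the swi3 arrays and 8.90 to 9.13 in the wild type. The difference was -5.85 ± 0.11 for SWI3 (adjusted p = 1.2e-05) and 5.37 ± 0.16 for RLM1 (adjusted p = 3.9e-05). RLM1 was also above the wild type in swi3, by 1.08 (adjusted p = 3.6e-04). The genes on either side of SWI3, the ribosomal protein gene RPL17B and the glucan gene KRE9, differed by -0.05 and 0.01 (adjusted p = 0.62 and 0.96). On 1 side of RLM1, the gene RPS6A had no value under its own name among the features tested. On the other side YPL088W, a gene of the aryl-alcohol dehydrogenase family, was higher in swi3 by 0.92 ± 0.19 (adjusted p = 0.019). Levels of YPL088W were 9.34 to 9.91 in rlm1, 10.22 to 10.58 in swi3 and 9.06 to 9.26 in the wild type. Its call was lost without rlm1 replicate 2, rlm1 replicate 3, swi3 replicate 1 or swi3 replicate 2 (adjusted p from 0.058 to 0.077).

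Across the genome, 752 features were higher and 614 lower in swi3 than in rlm1, which is 13.3% and 10.8% of the 5660 tested, or 24.1% in all. By at least 2-fold, 241 were higher (4.26%) and 131 lower (2.31%). The median difference over all features was -0.04. In all 1366 called features the arrays of the 2 groups did not overlap, as in 45.9% of all features tested. Without rlm1 replicate 1 the counts were 824 higher and 654 lower. They dropped to 437 and 249 without rlm1 replicate 2, to 482 and 269 without rlm1 replicate 3, and to 466 and 281 without swi3 replicate 2. Of all calls 44.9% were lower in swi3. On the values as deposited, where rlm1 replicate 1 is not brought to the scale of the others, 132 were higher and 165 lower, so 55.6% were lower. With values as deposited and without that array, 85.4% were lower and the median of all features moved to -0.37. The changes below are given on the quantile-normalized scale, where that median is -0.04.

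**Figure D1:**
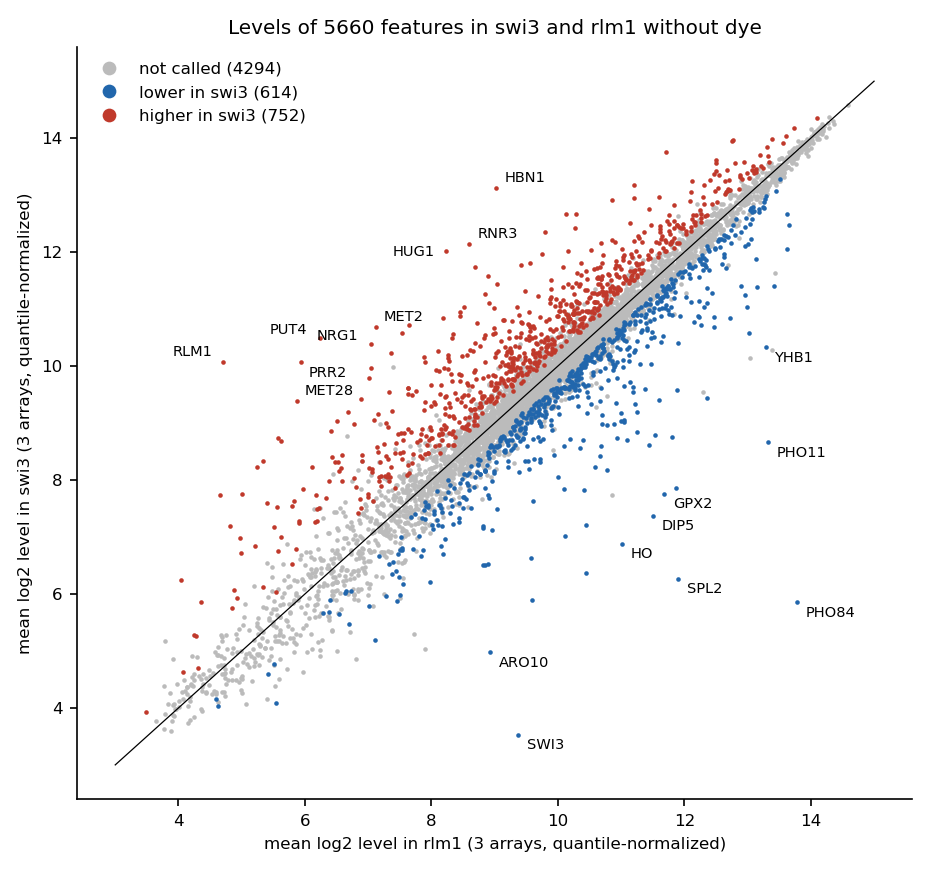
Mean quantile-normalized log2 level of each of the 5660 features in swi3 (vertical axis) against rlm1 (horizontal axis), 3 arrays each; red points were called higher in swi3 (752), blue lower (614) and grey not called, and the line marks equal levels. PHO84, SWI3 and SPL2 lie farthest below the line, and RLM1, PUT4, PRR2 and HBN1 farthest above it among the labelled genes.

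Against the untreated wild type the counts were as follows. In rlm1 minus wild type 6 features were called (0.106% of those tested), and in swi3 minus wild type 1558 (27.5%). By limma's unadjusted p under 0.05 the counts were 682 and 2232, so a feature not called in rlm1 may still differ from the wild type. Without rlm1 replicate 1, 3 features were called higher and 4 lower in rlm1 minus wild type. These comparisons share arrays with the one between the mutants and are not independent of it. For the 30 genes with the largest differences between the mutants, rlm1 minus wild type ranged from -0.65 to 0.61 and called 0 of them by limma, whereas swi3 minus wild type called all 30, with increases from 2.58 up and decreases from -2.69 down. In the plot of single arrays the swi3 arrays of each of these genes lie to one side of the other strains. The separation from rlm1 was set by the rule that chose the genes, whereas the wild type was not part of that rule.

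**Figure D2:**
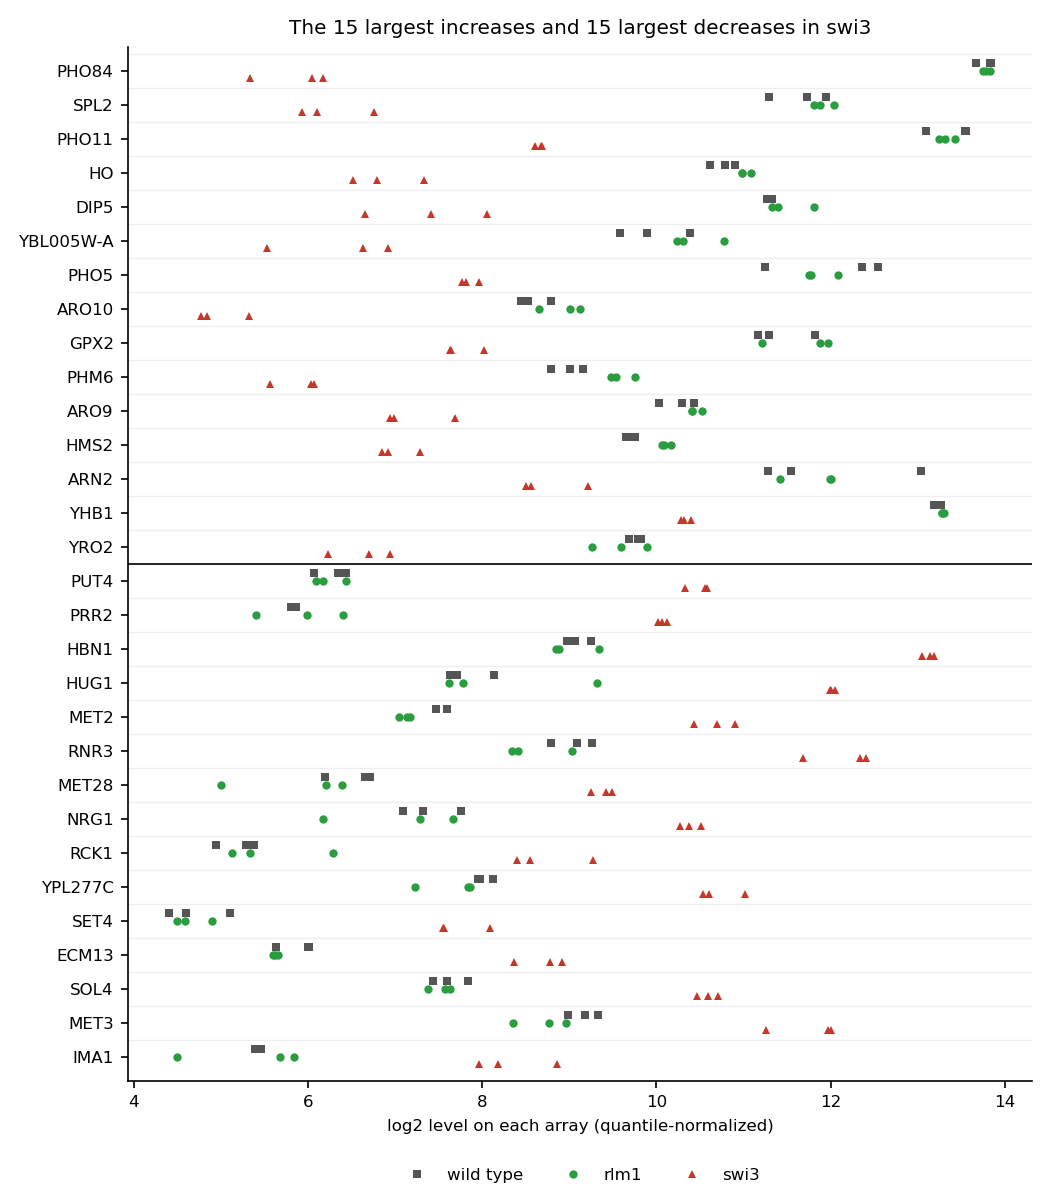
Quantile-normalized log2 level on each untreated array (horizontal axis) for the 15 largest decreases (top) and the 15 largest increases (bottom) in swi3 against rlm1; squares are wild type, circles rlm1 and triangles swi3, 3 arrays each. PHO84 drops from 13.75 to 13.82 in rlm1 to 5.34 to 6.17 in swi3, and PUT4 climbs from 6.09 to 6.44 to 10.32 to 10.58.

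The phosphate regulon held the largest decreases. PHO84, the high-affinity phosphate transporter, was at 13.82, 13.78 and 13.75 on the rlm1 arrays and 5.34, 6.17 and 6.05 on the swi3 arrays, with 13.67 to 13.84 in the wild type. The swi3 arrays lay far below all others, at the level of absent targets. The difference was -7.93 ± 0.22 (adjusted p = 3.9e-05), and its size is uncertain because swi3 was under 7. PHO5, the main repressible acid phosphatase, was at 12.08, 11.74 and 11.78 in rlm1 and 7.82, 7.77 and 7.97 in swi3, a difference of -4.02 ± 0.12 (adjusted p = 3.9e-05) or 16.2-fold. PHO11, another secreted acid phosphatase whose near-identical copy PHO12 was not told apart from it here, was at 13.42, 13.24 and 13.31 in rlm1 and 8.68, 8.61 and 8.69 in swi3, a difference of -4.67 ± 0.08 (adjusted p = 9.2e-06) or 25.4-fold. SPL2, which curbs low-affinity phosphate transport when phosphate is scarce, differed by -5.64 ± 0.22, and PHM6, a phosphate-responsive gene, by -3.70 ± 0.16. The sodium-dependent phosphate transporter PHO89 differed by -2.82 ± 0.19. In all, 16 of 19 phosphate genes tested were lower and 0 higher by limma, against 10.8% of all features that were lower, with a median of -1.42. Among the lower genes was PHO3 (-1.42), an acid phosphatase gene that the thiamine list also holds. Without any 1 array the lower calls were 15 to 17. The activator genes differed less: PHO2 fell by 0.63 ± 0.08 (adjusted p = 0.0036), and PHO4 was at -0.61 ± 0.19 (adjusted p = 0.071). The mean level of the 19 genes was 9.06 to 9.11 on the swi3 arrays, 11.25 to 11.30 in rlm1 and 11.02 to 11.42 in the wild type.

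HO, the endonuclease that starts mating-type switching in mother cells, and the genes by which daughter cells separate were also lower in swi3. HO was at 10.99, 10.98 and 11.09 in rlm1 and 7.33, 6.52 and 6.80 in swi3, with 10.62 to 10.90 in the wild type. The groups were far apart, with a difference of -4.13 ± 0.21 (adjusted p = 2.2e-04). Of 15 genes of daughter cell separation, HO among them, 11 were lower (73.3%, against 10.8% of all features) and 0 higher by limma. Their median was -1.02, and 10 to 12 were lower when any 1 array was left out. PRY3, a secreted wall-associated protein, differed by -1.89 ± 0.19, and the cyclin PCL9 by -1.84 ± 0.10. The glucanase SCW11 fell by 1.78 ± 0.14, and the separation protein EGT2 by 1.36 ± 0.14 (adjusted p from 2.9e-04 to 0.0019 for these 4). The chitinase CTS1, which cuts the septum, did not follow them: it was at 12.77, 12.77 and 12.73 in rlm1 and 12.73, 12.74 and 12.81 in swi3 (0.00 ± 0.06, adjusted p = 0.98).

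Among genes of mating, BAR1, the protease that degrades alpha factor, was lower in swi3 by 2.01 ± 0.30 (adjusted p = 0.0066), with 10.85, 11.12 and 11.15 in rlm1, 9.55, 9.15 and 8.37 in swi3 and 11.21 to 11.82 in the wild type. Of 8 a-specific genes 3 were lower (37.5%, against 10.8% of all features) and 0 higher by limma (median -0.38). Without rlm1 replicate 2 or without rlm1 replicate 3, 1 was lower. The receptor STE2 (-0.23, adjusted p = 0.45) and the pheromone gene MFA2 (-0.10, adjusted p = 0.72) were not called. Of 22 genes of pheromone response and fusion 3 were lower (13.6%, against 10.8% of all features): PRM4, a pheromone-regulated membrane protein (-1.66), SST2, which desensitises the pheromone signal (8.92, 8.72 and 8.13 in swi3 against 10.13 at the median of rlm1), and FAR1, which arrests the cycle (-0.90). FAR1 lost its call without rlm1 replicate 1 or rlm1 replicate 2, among other settings. The other 2 called members, KAR4 (1.00) and FIG2 (0.47), were higher, and both lie on chromosome III, described below.

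Genes for the use of aromatic amino acids and for amino acid uptake moved in both directions. ARO10, which decarboxylates phenylpyruvate in the Ehrlich pathway, was at 8.65, 9.01 and 9.13 in rlm1 and 4.77, 5.32 and 4.84 in swi3, a difference of -3.95 ± 0.19 (adjusted p = 2.1e-04). ARO9, the aromatic aminotransferase of the same route, differed by -3.24 ± 0.21 (adjusted p = 5.0e-04). Of the 15 genes of this list 5 were lower (33.3%, against 10.8% of all features) and 2 higher (13.3%, as of all features). Its median (-0.04) was that of all features. The lower calls were 3 without rlm1 replicate 2 or rlm1 replicate 3 and 2 without swi3 replicate 2, and ARO10 and ARO9 were called each time. The higher calls were 0 without rlm1 replicate 2, rlm1 replicate 3 or swi3 replicate 3 and 1 without swi3 replicate 1 or swi3 replicate 2. DIP5, the permease for acidic amino acids, was at 11.81, 11.39 and 11.33 in rlm1 and 8.06, 7.41 and 6.65 in swi3 (-4.13 ± 0.36, adjusted p = 0.0010). The tyrosine and branched-chain permease TAT1 fell by 2.30 ± 0.16 and the oligopeptide transporter OPT1 by 1.80 ± 0.12 (adjusted p = 6.5e-04 and 6.0e-04). In the opposite direction, the proline permease PUT4 was at 6.09, 6.44 and 6.17 in rlm1 and 10.55, 10.58 and 10.32 in swi3, a difference of 4.25 ± 0.12 (adjusted p = 3.9e-05). The general amino acid permease GAP1 rose by 2.42 ± 0.23 (adjusted p = 0.0014). Of 24 permeases and transporters 7 were lower (29.2%, against 10.8% of all features) and 4 higher (16.7%, near the 13.3% of all features).

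5 of the largest decreases belong to no single list. YHB1, the flavohaemoglobin that removes nitric oxide, was at 13.30, 13.27 and 13.28 in rlm1 and 10.39, 10.28 and 10.31 in swi3, and it differed by -2.96 ± 0.07 (adjusted p = 1.9e-05). GPX2, a glutathione peroxidase, fell from 11.21, 11.88 and 11.97 to 7.62, 7.64 and 8.02 (-3.92 ± 0.23, adjusted p = 3.8e-04). In both genes the arrays of each mutant lay close together and far from the other mutant. HMS2, a protein similar to heat shock transcription factors, differed by -3.09 ± 0.13, and the membrane protein gene YRO2 by -2.95 ± 0.23. YBL005W-A, a Gag open reading frame of a Ty retrotransposon, differed by -4.08 ± 0.38 (adjusted p = 0.0013), but such elements have many near-identical copies, so the value cannot be assigned to 1 of them.

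Genes of sulphate assimilation and methionine synthesis were mostly higher in swi3, with 14 of 24 higher and 2 lower (median 0.44), against 13.3% and 10.8% of all features. MET2, which starts the homocysteine branch from homoserine, was at 7.14, 7.04 and 7.17 in rlm1, 10.43, 10.90 and 10.70 in swi3 and 7.46 to 7.59 in the wild type. It differed by 3.56 ± 0.13 (adjusted p = 1.0e-04). MET3, ATP sulphurylase, differed by 3.05 ± 0.26, and MET28, a cofactor of the activator Met4, by 3.52 ± 0.37. The last gene lay under 7 on all 3 rlm1 arrays, at 5.01 on rlm1 replicate 1 against 6.39 and 6.21. MET6, methionine synthase, rose by 2.04 ± 0.12 and MET10, a sulphite reductase subunit, by 2.02 ± 0.21 (adjusted p = 4.0e-04 and 0.0018). The sulphate permease SUL1 was under 7 on every array of the comparison and not called (0.07, adjusted p = 0.88). The higher calls were 10 to 15 without any 1 array, while the 2 lower calls became 0 without rlm1 replicate 2, rlm1 replicate 3 or swi3 replicate 2. Amino acid synthesis as a whole was split: of 60 genes 14 were higher (23.3%) and 11 lower (18.3%). Its median of 0.14 was below 0 on the values as deposited without rlm1 replicate 1. The higher calls dropped to 7 without rlm1 replicate 2 and 9 without swi3 replicate 2, and the lower calls to 7 without rlm1 replicate 2, rlm1 replicate 3 or swi3 replicate 2. SER3, the first step of serine synthesis, rose by 2.36 ± 0.18 and ARG3, ornithine carbamoyltransferase, by 1.79 ± 0.15. The lysine genes LYS9 and LYS20 fell by 1.28 ± 0.11 and 1.24 ± 0.10.

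Genes of deoxynucleotide supply and DNA damage were higher in swi3 in 9 of 16 cases (56.25%, against 13.3% of all features) and lower in 1. Their median was 0.40, with 7 to 9 higher calls without any 1 array. HUG1, which restrains ribonucleotide reductase, was at 12.01, 11.99 and 12.04 in swi3, 9.31, 7.62 and 7.78 in rlm1 and 7.63 to 8.13 in the wild type. All swi3 arrays lay above all others, and rlm1 replicate 1 was high among the rlm1 arrays. The difference was 3.78 ± 0.45 (adjusted p = 0.0029), and without that array it was 4.32. RNR3, the damage-inducible large subunit of the reductase, was at 12.41, 12.34 and 11.68 in swi3 and 9.03, 8.34 and 8.41 in rlm1 (3.55 ± 0.27, adjusted p = 7.5e-04). RAD16, of nucleotide excision repair, rose by 2.21 ± 0.13 and the small subunit RNR2 by 1.21 ± 0.10 (adjusted p = 3.4e-04 and 0.0010). The lower gene was the mitochondrial nuclease DIN7 (-0.99 ± 0.16).

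Genes that glucose represses were higher in swi3 in 19 of 32 cases (59.4%, against 13.3% of all features) and lower in 1 (median 0.78). The higher calls were 13 to 24 without any 1 array and 4 on the values as deposited. ALD4, the mitochondrial aldehyde dehydrogenase, was at 13.13, 13.15 and 13.26 in swi3 and 10.87, 11.33 and 11.42 in rlm1 (1.97 ± 0.16, adjusted p = 8.6e-04). YAT1, a carnitine acetyltransferase, differed by 1.84 ± 0.15, and ADR1, the activator of several of these genes, by 1.68 ± 0.16 (adjusted p = 9.7e-04 and 0.0014). SUC2, invertase, a textbook target of SWI/SNF, was higher and not lower in swi3: it was at 10.92, 10.74 and 10.71 in swi3, 9.67, 9.85 and 9.92 in rlm1 and 9.89 to 10.21 in the wild type (0.98 ± 0.10, adjusted p = 0.0017). NRG1, a repressor of glucose-repressed genes, was at 10.51, 10.27 and 10.37 in swi3 against 6.17, 7.29 and 7.66 in rlm1 (3.34 ± 0.38, adjusted p = 0.0024). Of 8 genes of maltose use 5 were higher (62.5%, against 13.3% of all features) and 0 lower by limma, or 3 higher without rlm1 replicate 3. The maltase MAL32 rose by 2.93 ± 0.16 (adjusted p = 3.4e-04). The isomaltase IMA1 rose from 4.50, 5.68 and 5.84 in rlm1 to 7.96, 8.18 and 8.86 in swi3 (adjusted p = 0.0052). Both belong to families of near-identical copies, so their values may hold signal of relatives. Of 19 hexose transporters and sensors 4 were higher, HXT2 by 1.13 ± 0.10, and 1, HXT1, lower (26.3% called, against 24.1% of all features). HXT1 lost its call without rlm1 replicate 2, swi3 replicate 1 or swi3 replicate 2. The 6 galactose genes held 0 calls by limma, against 24.1% of all features called.

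Respiratory chain and ATP synthase genes were higher in 24 of 39 cases (61.5%, against 13.3% of all features) and lower in 1, with a median of 0.55. Their mean level was 11.49 to 11.65 in swi3, 10.95 to 11.16 in rlm1 and 10.98 to 11.00 in the wild type. QCR2, of complex III, was at 11.91, 11.78 and 11.43 in swi3 and 10.45, 10.56 and 10.70 in rlm1 (1.14 ± 0.15, adjusted p = 0.0038). The ATP synthase genes ATP3 and ATP14 rose by 0.83 ± 0.08 and 0.85 ± 0.08. The gene that was lower was CYT1, cytochrome c1 of the same complex III, with a mean of 9.18 ± 0.19 (SD, n = 3 arrays) in swi3 and 10.46 ± 0.34 in rlm1, which did not overlap (-1.28 ± 0.19, adjusted p = 0.0067). In the wild type it was at 9.41 to 9.70, nearer to swi3. Its rlm1 minus wild type difference was 0.88 (limma adjusted p = 0.29, or 0.046 without rlm1 replicate 1). The higher calls were 14 without swi3 replicate 2, and 0 by limma on the values as deposited, where ATP3, ATP14, QCR2 and CYT1 all lost their calls. Mitochondrial ribosomal proteins held 0 higher and 2 lower calls of 43 (4.65% called, against 24.1% of all features, median -0.04).

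The general stress genes moved both ways, with 11 of 35 higher (31.4%, against 13.3% of all features) and 7 lower (20.0%, against 10.8%). Their median was 0.29, but below 0 on the values as deposited without rlm1 replicate 1. HSP12, a small membrane-binding stress protein, was at 11.84, 12.44 and 12.80 in swi3, 9.65, 9.74 and 9.99 in rlm1 and 8.85, 8.95 and 10.56 in the wild type. It rose by 2.57 ± 0.25 (adjusted p = 0.0015). YGP1, a secreted glycoprotein induced on nutrient limitation, was at 9.57, 9.62 and 9.10 in swi3 and 12.21, 12.38 and 12.50 in rlm1 (-2.93 ± 0.16, adjusted p = 3.4e-04). The transcription factor genes MSN4 and CIN5 rose by 1.66 ± 0.16 and 1.58 ± 0.13. Without rlm1 replicate 2 or swi3 replicate 2 the higher calls were 6, and without swi3 replicate 3 they were 7. The lower calls were 4 without rlm1 replicate 3, swi3 replicate 2 or swi3 replicate 3. Of 19 trehalose and glycogen genes 5 were higher (26.3%, against 13.3% of all features) and 1 lower (median 0.26). The higher calls were 3 without rlm1 replicate 2 or swi3 replicate 1 and 2 without swi3 replicate 2.

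The other large increases came from varied genes. PRR2, a protein kinase linked to the pheromone response, was at 10.02, 10.06 and 10.12 in swi3 and 6.40, 5.99 and 5.40 in rlm1 (4.14 ± 0.25, adjusted p = 4.0e-04). HBN1, a gene similar to bacterial nitroreductases, was at 13.04, 13.13 and 13.18 in swi3 and 9.34, 8.88 and 8.85 in rlm1, a 17.2-fold difference (4.10 ± 0.15, adjusted p = 9.3e-05). SOL4, a 6-phosphogluconolactonase, differed by 3.06 ± 0.10 (adjusted p = 7.1e-05). The groups of each gene lay far apart. RCK1, a kinase of the oxidative stress response, SET4, a SET domain protein, ECM13 and YPL277C, which have no role settled here, differed by 3.06 to 3.16. Among the 30 genes with the largest differences, the swi3 levels of PHO84, SPL2, HO, YBL005W-A, ARO10, PHM6 and YRO2 and the rlm1 levels of PUT4, PRR2, MET28, RCK1, SET4, ECM13 and IMA1 had means under 7, so the sizes of these differences are uncertain. All 30 were called under each of the 17 alternatives run and with the dye in the same direction. Their adjusted p was at most 0.0052, and leaving out any 1 array moved a difference by at most 0.54, which was without rlm1 replicate 1.

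**Figure D3:**
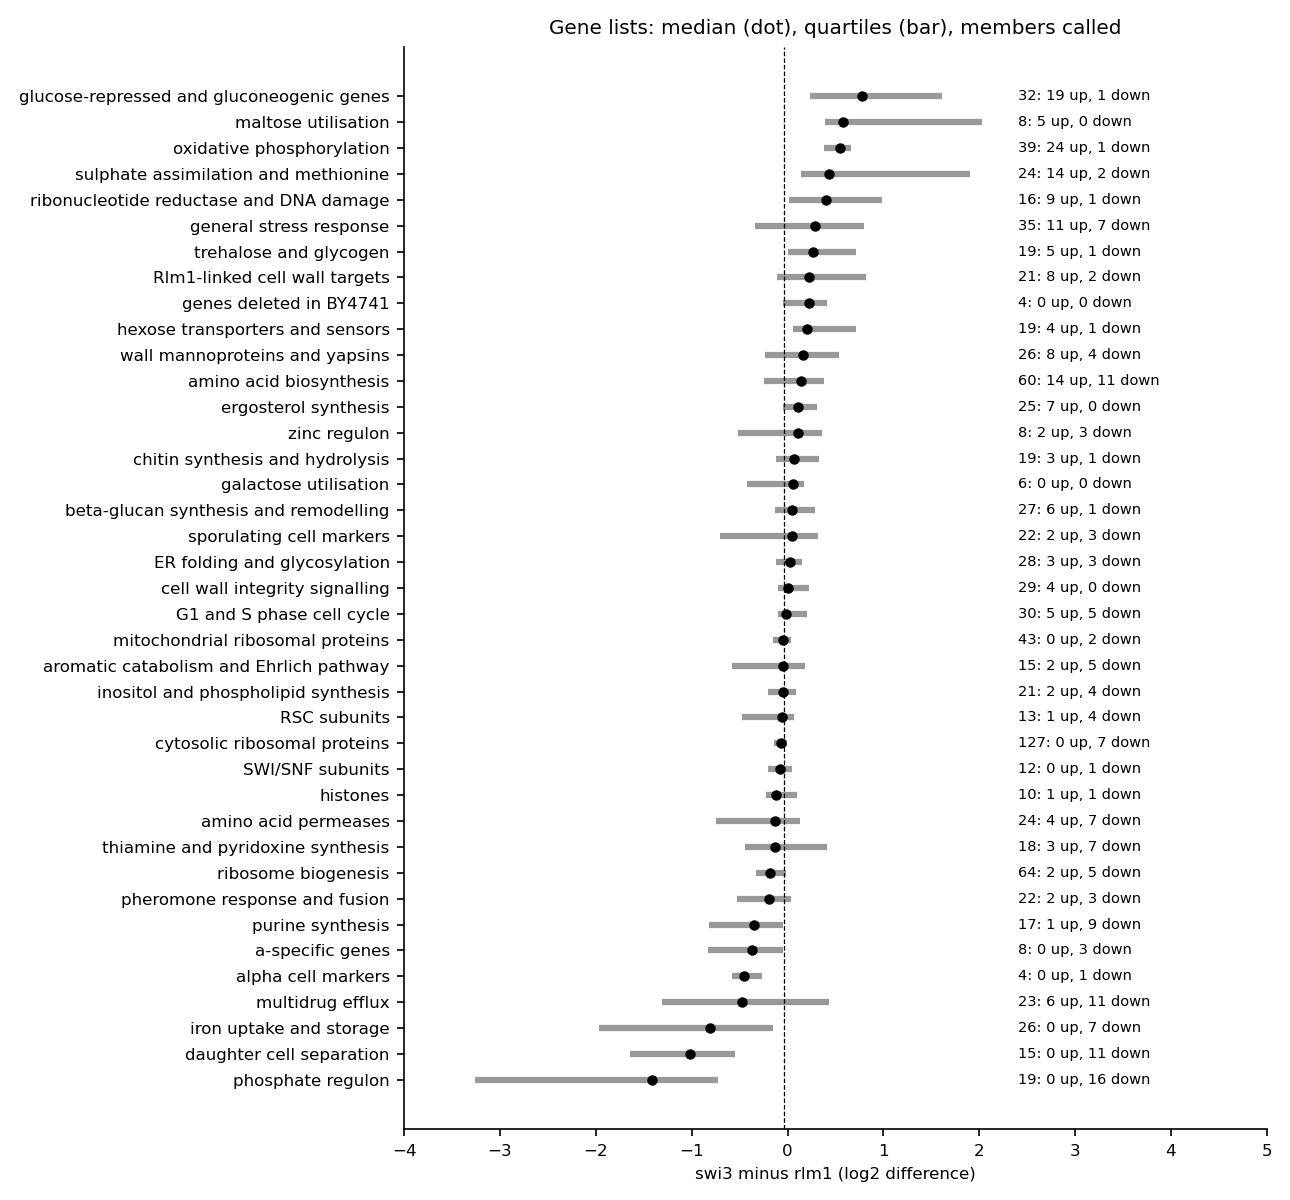
Gene lists by their difference swi3 minus rlm1 (log2, horizontal axis): dots are medians over the tested members, bars span the quartiles, the dashed line is the median of all features (-0.04), and the text gives members tested, called higher (up) and called lower (down). The phosphate regulon (median -1.42) and daughter separation (-1.02) lie farthest to the left, and glucose-repressed genes (0.78), maltose use (0.58) and oxidative phosphorylation (0.55) farthest to the right.

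Cell wall genes linked to Rlm1 did not differ as a block. Of 21 such genes 8 were higher in swi3 (38.1%, against 13.3% of all features) and 2 lower (9.5%, against 10.8%). Their median was 0.23, and 6 to 9 were higher without any 1 array. In rlm1 minus wild type without dye, 0 of the 21 were called by limma (median 0.05), and 0.106% of all features were called there. The 0 in rlm1 is thus near the share over all features. In swi3 minus wild type 10 were higher and 2 lower (median 0.24), against 27.5% of all features called in either direction. PRM5, a pheromone- and wall-stress-regulated membrane protein, was at 11.26, 11.32 and 11.11 in swi3, 9.36, 9.86 and 9.84 in rlm1 and 9.60 to 10.45 in the wild type, so swi3 lay above both other strains (1.54 ± 0.16, adjusted p = 0.0017). YPS3, a wall aspartic protease, rose by 1.25 ± 0.20 (adjusted p = 0.0082). CRH1, which links chitin to glucan, was at 12.76, 12.60 and 12.61 in swi3 and 11.88, 11.76 and 11.65 in rlm1 (0.89 ± 0.09, adjusted p = 0.0017), and the mannoprotein CWP1 rose by 0.76 ± 0.09. PST1, a wall protein that is among the genes most induced by wall damage, went the other way. It was at 9.31, 9.25 and 8.96 in swi3, 10.86, 11.04 and 11.07 in rlm1 and 10.55 to 10.70 in the wild type (-1.82 ± 0.12, adjusted p = 5.0e-04), with swi3 below both other strains. The kinase gene SLT2 (-0.08 ± 0.14, adjusted p = 0.72), its paralogue KDX1 (-0.02 ± 0.16, adjusted p = 0.95), the glucan synthase GSC2 (-0.29 ± 0.09, adjusted p = 0.080) and the chitin synthase CHS3 (0.23 ± 0.11, adjusted p = 0.20) were not called. On the values as deposited 2 of the 21 were higher.

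The other wall lists held calls as follows. The surface sensors WSC4, MTL1 and MID2 differed by 0.90 ± 0.13, 0.89 ± 0.12 and 0.73 ± 0.08, and with RLM1 itself they were the 4 higher calls among 29 genes of integrity signalling, of which 0 were lower by limma (median 0.00). That is 13.8% higher, against 13.3% of all features. GFA1, which makes glucosamine phosphate, and PCM1, which acts downstream of it, rose by 0.60 ± 0.07 and 0.85 ± 0.06, among 3 higher (15.8%) and 1 lower of 19 chitin genes. These 5 genes lost their calls on the values as deposited, and MTL1 also on median-centred arrays. Of 27 glucan genes 6 were higher and 1, SCW11, lower (25.9% called, near the 24.1% of all features). SCW10, a glucanase close to SCW11, was at 13.63, 13.56 and 13.49 in swi3 and 12.52, 12.50 and 12.47 in rlm1, so these relatives differed in opposite directions (1.07 ± 0.07, adjusted p = 5.0e-04). The glucan synthase FKS1 (0.21, adjusted p = 0.069) and the glucanosyltransferase GAS1 (-0.15, adjusted p = 0.14) were not called. Of 26 mannoproteins and yapsins 8 were higher (30.8%, against 13.3% of all features) and 4 lower (15.4%, against 10.8%). TIR2, a cold-shock mannoprotein, was at 11.87, 11.81 and 11.05 in swi3 and 9.42, 8.69 and 8.57 in rlm1 (2.68 ± 0.31, adjusted p = 0.0028). Its relatives TIR3 and TIR1 fell by 2.24 ± 0.18 and 1.79 ± 0.16. SPI1, a wall protein of weak-acid resistance, rose by 2.22 ± 0.09. The higher calls dropped to 4 without rlm1 replicate 2 or rlm1 replicate 3 and to 5 without swi3 replicate 1.

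Subunit genes of SWI/SNF other than SWI3 were not called: the list of 12 held 0 higher and 1 lower gene, SWI3 itself, and the ATPase gene SNF2 was at 0.00 ± 0.11. This 1 call is 8.3% of the list, against 24.1% of all features called. Among 13 genes of RSC, the related essential remodeller, RSC8, whose product is the paralogue of Swi3, stood out. It had a mean of 11.91 ± 0.09 (SD, n = 3 arrays) in rlm1 and was at 10.14, 10.39 and 10.67 in swi3 and at 10.11 to 10.63 in the wild type, so rlm1 was the strain that lay apart. The difference was -1.51 ± 0.14 between the mutants (adjusted p = 0.0014), and rlm1 minus wild type was 1.49 (adjusted p = 0.049, or 0.087 without rlm1 replicate 1). In all 4 RSC genes were lower in swi3 (30.8%, against 10.8% of all features) and 1 higher. The lower calls were 2 without rlm1 replicate 2, rlm1 replicate 3 or swi3 replicate 2. The ATPase gene STH1 was among them (-0.79 ± 0.14). The higher one, RSC6 (0.70 ± 0.08), lies on chromosome III. A second gene where rlm1 lay apart was BRE5, a cofactor of a ubiquitin protease, at 11.15, 11.09 and 11.03 in rlm1, 8.42, 8.82 and 8.87 in swi3 and 9.13 to 9.38 in the wild type (-2.39 ± 0.14, adjusted p = 3.4e-04). Beside RLM1, BRE5 and RSC8, the features called in rlm1 minus wild type were CMR1 (1.16), COS12 (-1.17) and YLR154C-H (-1.97), of which CMR1 lost its call without rlm1 replicate 1 (adjusted p = 0.054). Without that array CYT1 (1.08), SIR2 (-0.90) and IME2 (1.28) were called as well (adjusted p = 0.046, 0.042 and 0.040).

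Iron uptake showed how 1 array can decide a count. The siderophore transporters ARN2 and ENB1 fell by 3.04 ± 0.25 and 2.75 ± 0.22 (adjusted p = 9.7e-04 and 9.1e-04). In all, 7 of 26 iron genes were lower (26.9%, against 10.8% of all features) with 0 higher by limma (median -0.81). FIT2, a mannoprotein that holds siderophores, was at 8.73, 8.79 and 12.88 in swi3 and 12.87, 13.14 and 13.12 in rlm1, and was not called (adjusted p = 0.12). The siderophore transporter SIT1 (8.33, 8.33 and 11.98 in swi3, 12.15 to 12.40 in rlm1) and the RNA-binding protein TIS11 (6.91, 6.47 and 9.82 against 10.40 to 11.12) had the same shape (adjusted p = 0.10 and 0.052). In all 3 genes swi3 replicate 3 was high and the other swi3 arrays were low. The mean level of the 26 genes was 9.14, 9.06 and 10.42 in swi3, 10.49 to 10.75 in rlm1 and 10.41, 10.32 and 11.24 in the wild type, so replicate 3 was also the highest array of the wild type. Without swi3 replicate 3 the lower calls were 17. Without rlm1 replicate 2, rlm1 replicate 3 or swi3 replicate 2 they were 3, and 4 without swi3 replicate 1.

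Drug efflux genes were split, with 11 of 23 lower (47.8%, against 10.8% of all features) and 6 higher (26.1%, against 13.3%). Their median was -0.48, and 8 to 13 were lower without any 1 array. The transporter QDR2 was at 7.92, 7.76 and 7.80 in swi3 and 10.25, 10.43 and 10.56 in rlm1 (-2.59 ± 0.10, adjusted p = 1.0e-04). The ABC transporters PDR15 and PDR5 fell by 2.06 ± 0.08 and 1.76 ± 0.11, whereas the related PDR10 rose by 1.66 ± 0.13. In phospholipid synthesis CHO2, the first methylation step to phosphatidylcholine, fell by 1.87 ± 0.09 (adjusted p = 2.2e-04). INO1, the inositol synthase gene known to need SWI/SNF for induction, was not called (-0.16 ± 0.16, adjusted p = 0.51). In this list of 21, 4 genes were lower and 2 higher (28.6% called, near the 24.1% of all features). The higher calls were 0 without any 1 of 5 arrays, swi3 replicate 3 being the exception. The zinc transporter ZRT1 fell by 1.70 ± 0.15, and THI4, of thiamine synthesis, rose by 2.19 ± 0.12 (adjusted p = 0.0010 and 2.9e-04). Of the 8 genes of the zinc list 3 were lower (37.5%, against 10.8% of all features) and 2 higher (25%, against 13.3%).

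In lists with smaller shifts the counts of calls changed when an array was left out, as did the counts over all features. The medians kept their sign in the purine and ergosterol lists. With any 1 array left out, the purine median was -0.53 to -0.29. The ergosterol median was 0.11 with all arrays and 0.12 to 0.16 with 1 left out. Of 17 purine genes 9 were lower (52.9%, against 10.8% of all features) and 1 higher (median -0.35). The lower calls were 3 without rlm1 replicate 2 or swi3 replicate 2. They were 4 without rlm1 replicate 3 or swi3 replicate 3 and 6 without swi3 replicate 1. Of 18 thiamine and pyridoxine genes 7 were lower (38.9%, against 10.8% of all features) and 3 higher (16.7%, against 13.3%). The lower calls were 1 without rlm1 replicate 2, 2 without rlm1 replicate 3 or swi3 replicate 2 and 4 without swi3 replicate 3. Of 25 ergosterol genes 7 were higher (28.0%, against 13.3% of all features) and 0 lower by limma, led by the activator ECM22 (1.22 ± 0.11). The higher calls were 1 without rlm1 replicate 2, 2 without rlm1 replicate 3 or swi3 replicate 2 and 4 without swi3 replicate 3. Cytosolic ribosomal protein genes were nearly level, with 7 of 127 lower and 0 higher (5.51% called, median -0.06), and 3 lower without rlm1 replicate 2, rlm1 replicate 3, swi3 replicate 1 or swi3 replicate 2. RPS14B was the exception in size, at 11.03, 10.83 and 10.76 in swi3 and 12.34, 12.16 and 12.12 in rlm1 (-1.33 ± 0.11, adjusted p = 8.7e-04). Ribosome biogenesis held 5 lower and 2 higher of 64, genes of G1 and DNA replication 5 in each direction of 30, folding and glycosylation genes of the endoplasmic reticulum 3 in each direction of 28 and histones 1 in each direction of 10. Against 24.1% of all features, 10.9%, 33.3%, 21.4% and 20.0% of these lists were called. The lower calls of the folding list were 0 without rlm1 replicate 2, rlm1 replicate 3 or swi3 replicate 2 and 1 without rlm1 replicate 1 or swi3 replicate 3. The higher histone call was lost whichever array was left out, and the lower calls were 0 without rlm1 replicate 2, rlm1 replicate 3 or swi3 replicate 2 and 2 without swi3 replicate 3. Without any 1 array the lower calls of ribosome biogenesis were 2 or 3, and the higher calls of G1 and replication were 1 without rlm1 replicate 2 or rlm1 replicate 3 and 2 without swi3 replicate 2 or swi3 replicate 3.

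Chromosome III stood apart from the rest of the genome, a pattern noticed after the values had been seen. Of its 147 genes 102 were higher in swi3 (69.4%) and 4 lower, and 133 had a difference above 0. Of 5295 genes on the other chromosomes 11.6% were higher and 11.1% lower. The median difference was 0.70 on chromosome III and between -0.07 and 0.00 on each of the 15 others, and 78 genes of chromosome III lay between 0.4 and 1. Both arms took part, with medians of 0.75 over 58 genes of the left arm and 0.67 over 89 of the right. Array by array, chromosome III exceeded the other chromosomes by 0.76, 0.75 and 0.74 in the untreated swi3 samples and by 0.70 to 0.79 in those with dye, relative to the untreated wild type, and by no more than 0.03 in either direction on the rlm1 and wild-type arrays. It supplied 102 of the 752 higher calls (13.6%) and 31 of the 241 at 2-fold. HBN1 lies there, and so do the higher genes RSC6, KAR4 and FIG2 named above. The 4 lower genes, named after their values were seen, were YCL021W-A (-2.35), SRD1 (-1.34), the serine deaminase CHA1 (-0.98) and the histidine gene HIS4 (-0.93). The median was 0.64 on the values as deposited, where 15 of the genes were called higher, and 0.39 on those values without rlm1 replicate 1. DNA copy number was not measured, so more copies of the chromosome and more RNA per copy cannot be told apart. Without their chromosome III genes, 17 of 30 glucose-repressed genes were higher and 16 of 18 phosphate genes lower, while RSC had 0 of 11 higher and the pheromone list 0 of 19. The higher calls went from 2 to 1 in the aromatic and ribosome biogenesis lists, from 3 to 2 in the thiamine and folding lists and from 14 to 12 in amino acid synthesis.

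**Figure D4:**
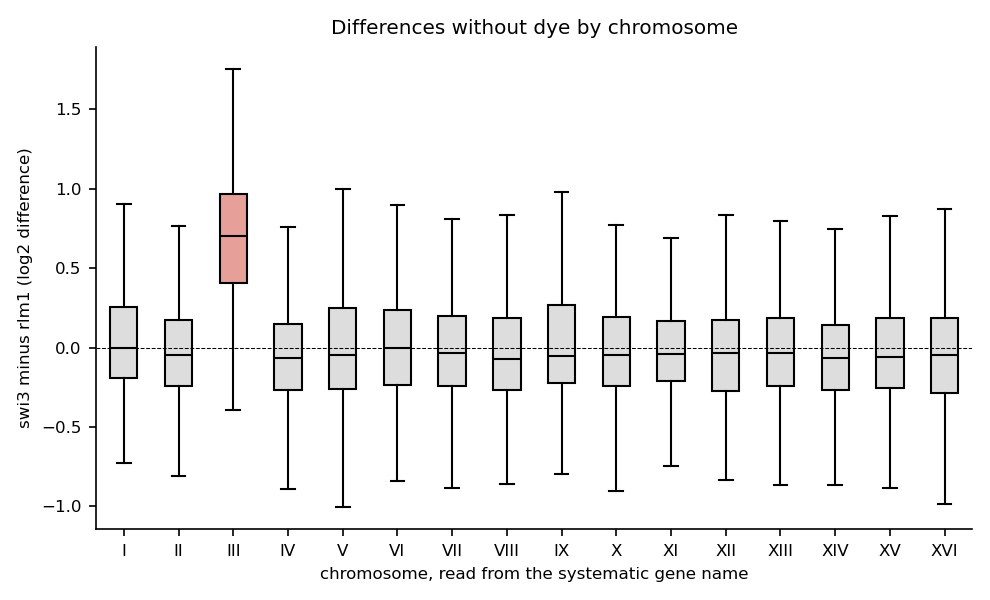
Difference swi3 minus rlm1 (log2, vertical axis) of the tested genes of each chromosome; boxes span the quartiles with the median as a line, whiskers reach 1.5 times the box length at most, and points beyond are not drawn. The box of chromosome III, with its median at 0.70, lies above the 15 others, whose medians lie between -0.07 and 0.00.

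With Congo Red, on 6 other arrays, 790 features were higher and 674 lower in swi3 than in rlm1 (14.0% and 11.9%, or 25.9% of those tested in all). Without rlm1 replicate 1 with dye, the counts were 866 and 747. These 6 arrays come from the same strains, and rlm1 replicate 1 stood apart with dye as without. Its median as deposited was 9.28 with dye, against 10 and 10.02 on the other rlm1 arrays with dye. The 2 comparisons may thus not be independent, and the part of this in the overlap was not tested. Of the features higher without dye, 595 were also higher with it, which is 79.1% of the calls without and 75.3% of the calls with dye. Of those lower, 460 were shared (74.9% and 68.2%), and 0 were called in opposite directions by limma. PHO89 was lower in both conditions, at -2.82 ± 0.19 without and -4.24 ± 0.25 with dye. Some genes, chosen after their values were seen, had values that lay far apart: PST1 was at -1.82 ± 0.12 without and -0.20 ± 0.10 with dye (adjusted p = 0.21), and PIR3, a wall protein with internal repeats, at 0.88 ± 0.16 without and 4.18 ± 0.21 with dye. GSC2 was at -0.29 ± 0.09 without and -2.03 ± 0.14 with dye, and KDX1 at -0.02 ± 0.16 and 1.48 ± 0.16. Whether these differences changed with the dye was not tested. The untreated call of PIR3 was lost without rlm1 replicate 2 or rlm1 replicate 3, and on median-centred arrays.

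**Figure D5:**
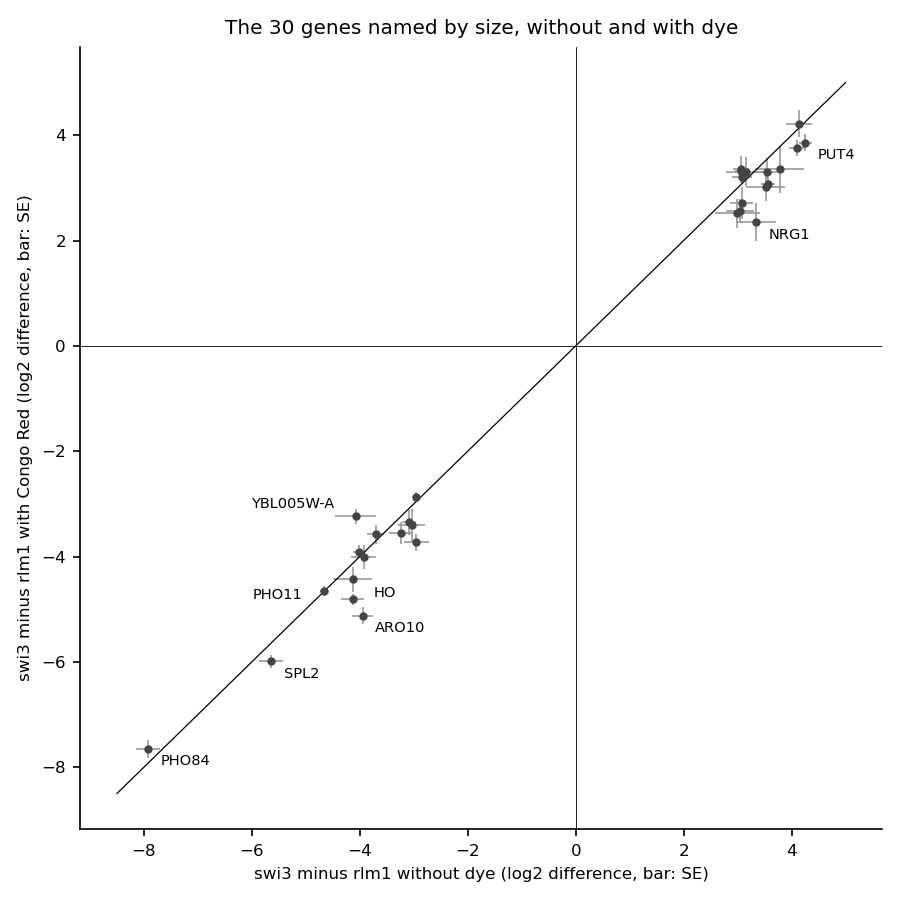
Difference swi3 minus rlm1 (log2) with Congo Red (vertical axis) against that without dye (horizontal axis) for the 30 genes with the largest differences without dye; bars are standard errors and the diagonal marks equal differences. All 30 keep their sign, from PHO84 at the lower left to PUT4 at the upper right, and NRG1 (3.34 without and 2.35 with dye) lies below the diagonal.

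Markers of other cell states were examined. Of 22 genes of sporulating cells 14 were under 7 in all 3 strains, and their summed level was 136 to 137 in swi3, 145, 134 and 135 in rlm1 and 131 to 133 in the wild type. The high sum is that of rlm1 replicate 1, where SPO13 was at 8.34 against 5.53 and 5.71 on the other rlm1 arrays, IME1 at 10.47 against 8.78 and 8.82, and SMK1 at 7.78 against 6.30 and 6.44. Of the 22 genes 2 were higher and 3 lower in swi3 than in rlm1 (22.7% called, near the 24.1% of all features). The lower ones were SPS4 (-1.57), IME2 (-1.11) and SPS1 (-1.02). IME2 lost its call without rlm1 replicate 2, and SPS1 lost it without any 1 array other than swi3 replicate 3. The mean of IME2 was 7.22 in swi3, 7.23 in the wild type and 8.34 in rlm1, so rlm1 was the strain that lay apart. Its rlm1 minus wild type difference was 1.11 (limma adjusted p = 0.23, or 0.040 without rlm1 replicate 1). SPO20, which builds the spore membrane, rose from 4.99, 5.12 and 4.91 in rlm1 to 7.62, 7.69 and 7.98 in swi3 (2.75 ± 0.12, adjusted p = 1.2e-04). Of 4 alpha-cell genes 3 were under 7 in every strain and 1, SAG1, was lower in swi3 (-0.64), with sums of 23.7 to 24.9 in swi3, 25.3 to 26.9 in rlm1 and 25.8 to 26.4 in the wild type. The a-specific genes, expected in BY4741, summed to 80.5 to 87.0 in swi3, 88.4 to 89.4 in rlm1 and 88.7 to 94.7 in the wild type. Of the genes deleted in BY4741, URA3 and MET17 were under 7 in all samples, LEU2 was at 8.66 on rlm1 replicate 1 both without and with dye, and HIS3 was near 11 in all strains, where the position of its probes against the deleted stretch was not examined. Array signals measure RNA per sample, so fewer cells in a state and less RNA per cell cannot be told apart.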

How the data were processed

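Total RNA was labelled and hybridised to Affymetrix yeast arrays, 18 in all. The authors deposited log2 values per probe set that were made with GCRMA, per the submitters' processing notes. Its version, and whether all arrays were normalized together, is not given in the sources used here. Groups came from the sample labels. Of 5814 probe sets, 98 controls and reporters were left out and 5716 were kept. The deposited log2 values were quantile-normalized over the 18 arrays, because the array medians differed. The probe set with the highest mean was kept per gene, and features had to reach a level of 4 on at least 3 of 18 arrays. This left 5660 features, 5442 with a gene symbol (platform annotation, 12 symbols updated through RefSeq names of assembly R64).

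The 6 untreated mutant arrays were fitted with limma 3.58.1 in R 4.3.3 (lmFit, eBayes), with Benjamini-Hochberg adjustment over all 5660 features and a threshold of 0.05. The fit was tested on simulated data. With no depth in array data, precision rests on 3 arrays per group, and p-values measure the spread between those samples. Chromosomes were read from systematic gene names.

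Replicate numbers in the labels are shared by the groups. Deviations from the group means of same-numbered rlm1 and swi3 arrays correlated at 0.43, 0.25 and 0.28 across features. Of the pairs with unlike numbers, rlm1 replicate 2 with swi3 replicate 3 reached 0.31 and rlm1 replicate 3 with swi3 replicate 2 0.17, and the other 4 lay between -0.44 and -0.22. Every same-numbered correlation was over 0.1, so the numbers were treated as pairs in the fit with a replicate block. The pairs of a replicate 2 with a replicate 3 were over 0.1 too. These values thus cannot tell which of the arrays numbered 2 and 3 belong together. The choice to pair rests on these values, as the labels state no pairing.

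Genes were named as follows: the mutated genes and their neighbours, then the 15 largest increases and 15 largest decreases among called genes with groups that do not overlap and a mean of at least 7 in the higher group, then up to 6 called members of each of 39 gene lists, with uncalled core members given by value. PHO2, SUC2, CWP1, the features called in rlm1 minus wild type and the chromosome III genes were named after their values were seen. The gene sets, the lists and the comparison were chosen with earlier results of these data known. In all, 15 planned and 2 added alternatives were run.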

Additional observations from a re-analysis of the deposited data

Results flagged for a closer look

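Some signals lay in probe sets that the comparisons do not use. As deposited, 2 control probe sets for 25S ribosomal RNA had means of 12.95 and 12.74 in rlm1, above the wild-type means of 10.04 and 9.76 (n = 3 each). A reporter probe set, for a sequence that is not a yeast gene, was at 13.68 in rlm1 and 13.67 in swi3, against 5.06 in the wild type. Its levels were 13.52 to 13.76 in rlm1, 13.64 to 13.7 in swi3 and 4.9 to 5.14 in the wild type, with no overlap between either mutant and the wild type.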

How the results depend on the processing

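The main counts were 752 higher and 614 lower. Leaving out 1 array gave 437 to 824 higher and 249 to 654 lower. One fit over all 18 arrays gave 958 lower. Array weights gave 1421 higher and 1677 lower. On the values as deposited 132 were higher and 165 lower, with 127 higher by 2-fold. With those values and without rlm1 replicate 1, an alternative chosen after seeing the data, 431 were higher and 2520 lower, with 128 higher and 516 lower by 2-fold. Median-centred arrays without rlm1 replicate 1, also chosen after seeing the data, gave 200 lower by 2-fold. With the replicate block for the paired numbers 714 were higher and 592 lower. EKI1 (-0.11) and MAL11 (-0.16) reversed on the values as deposited without rlm1 replicate 1, where the median of all features was -0.37. The causes were not tested. Of 201 named genes called, 84 were called under all 17 alternatives, 127 under all except the 2 on values as deposited, and 66 lost the call when at least 1 array was left out. On the values as deposited the list medians of integrity signalling, glucan and folding genes changed sign, as did those of hexose, galactose and sporulating-cell genes, which also did so under median centring, as did those of the aromatic, cytosolic ribosomal protein and G1 lists. Without rlm1 replicate 1 as well, those of the chitin, mannoprotein, maltose, amino acid synthesis, zinc, ergosterol, trehalose and stress lists fell below 0, but not below the median of all features. Of 1326 list counts under alternatives 965 stayed within 1.5 times the main count and 361 moved. Levels under 7 limit the size of differences, and 3 arrays per group limit the rest.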
